A study of Mus musculus with 7 samples.

Results

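Transcripts of imprinted genes were read on arrays from the mouse insulin-secreting line MIN6 after 3 days with MPE, a polysaccharide extract of Maidong, or with its vehicle. The set held 36 named imprinted genes, and its members were the non-control array probes whose transcript accession belongs to one of those genes. That gave 67 of the 56605 probes on the array, and 36 of 45617 genes or unnamed transcripts. The MPE group had 4 arrays of cells given MPE, and the vehicle group had 3 arrays of cells given phosphate-buffered saline (PBS). Both groups were the same line at passage 20 to 30, without further genetic change, and each array carried Cy3-labelled RNA made from 100 ng of total RNA. The treatment notes list MPE at 0.05 to 50 μg/mL and do not tie a concentration to the arrays. Whether the replicates are separate cultures is not labelled, and the p-values therefore cover the spread of these samples alone, possibly a technical one. MIN6 is a single tumour-derived line, so its imprints need not be those of islets, and these arrays do not tell the maternal from the paternal allele.

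Genomic imprinting restricts transcription of a gene to the copy from one parent, through DNA methylation laid down in the germ line at imprinting control regions. Imprinted genes lie in clusters in which coding genes of one parental copy commonly alternate with non-coding RNAs of the other, as with Igf2 and H19, or Dlk1 and Meg3. Many of them act on growth, on hormone signalling and on metabolism. In islets the IGF2, CDKN1C, PLAGL1 and GRB10 proteins are known for roles in beta-cell growth and insulin signalling, and human loss of imprinting at several of these loci causes neonatal diabetes, hyperinsulinism or growth disorders.

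Start-site sequences are shown for Dlk1 and Meg3, neighbours that differed in how many arrays read them, for Peg3 and Usp29, which start back to back and were both read on every array, and for Grb10, read on none, since imprinted promoters are often rich in the CpG dinucleotides that carry methylation. The windows are from RefSeq on GRCm38.p6 and span 250 bases before to 50 after the annotated start, 5′ to 3′ on the gene's strand, with each CpG in capitals. Dlk1 (chr12:109452573-109452872, plus strand) and one of the windows of Meg3 (chr12:109540746-109541045, plus strand) belong to the same cluster. Peg3 (chr7:6730370-6730669, minus strand) and Usp29 (chr7:6730333-6730632, plus strand) lie on opposite strands, and their windows cover 263 bases in common. Grb10 is shown by one of its windows (chr11:12037371-12037670, minus strand).
Dlk1: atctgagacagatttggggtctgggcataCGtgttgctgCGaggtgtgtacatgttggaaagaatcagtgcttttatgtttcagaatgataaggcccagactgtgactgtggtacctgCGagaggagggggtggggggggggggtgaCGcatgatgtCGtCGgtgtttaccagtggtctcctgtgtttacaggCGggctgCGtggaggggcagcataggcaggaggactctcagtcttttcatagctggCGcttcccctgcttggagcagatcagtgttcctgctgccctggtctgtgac
Meg3: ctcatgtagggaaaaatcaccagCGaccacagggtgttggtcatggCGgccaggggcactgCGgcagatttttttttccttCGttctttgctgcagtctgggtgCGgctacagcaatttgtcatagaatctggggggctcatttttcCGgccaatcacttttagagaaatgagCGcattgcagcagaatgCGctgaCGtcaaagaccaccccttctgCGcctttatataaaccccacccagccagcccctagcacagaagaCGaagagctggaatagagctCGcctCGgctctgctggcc
Peg3: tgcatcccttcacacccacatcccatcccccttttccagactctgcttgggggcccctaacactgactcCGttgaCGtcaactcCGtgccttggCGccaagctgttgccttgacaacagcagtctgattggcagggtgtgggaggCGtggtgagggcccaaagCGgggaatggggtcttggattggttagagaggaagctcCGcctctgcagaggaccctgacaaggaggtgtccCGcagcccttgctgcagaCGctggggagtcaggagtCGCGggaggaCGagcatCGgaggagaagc
Usp29: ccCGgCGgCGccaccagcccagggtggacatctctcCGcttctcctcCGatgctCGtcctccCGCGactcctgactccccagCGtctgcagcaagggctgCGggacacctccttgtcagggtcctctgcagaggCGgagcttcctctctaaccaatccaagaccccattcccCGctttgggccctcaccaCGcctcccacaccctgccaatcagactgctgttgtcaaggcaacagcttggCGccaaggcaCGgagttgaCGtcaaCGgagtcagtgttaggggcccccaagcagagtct
Grb10: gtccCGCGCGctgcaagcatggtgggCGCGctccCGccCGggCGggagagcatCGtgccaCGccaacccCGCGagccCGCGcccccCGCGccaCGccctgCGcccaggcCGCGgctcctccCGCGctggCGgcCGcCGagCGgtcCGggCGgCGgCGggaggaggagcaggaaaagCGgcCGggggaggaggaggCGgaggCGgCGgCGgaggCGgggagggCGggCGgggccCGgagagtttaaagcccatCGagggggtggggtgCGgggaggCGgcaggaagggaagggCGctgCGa

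The Grb10 window shown held 45 CpG, a number reached by 1.93% of all windows, and the other Grb10 window held 9 (45.8%). Usp29 had 17 CpG (31.4% of windows held as many), Peg3 and the Meg3 window shown had 13 each (37.9%) and Dlk1 had 9 (45.8%). The other Meg3 window held 1 CpG (94.6%). Windows were found for 29 of the 36 members, 46 windows in all, and none were used for H19, Kcnq1, Cdkn1c, Rtl1, Peg10, Sgce and Impact. The median was 10.5 CpG in the 36 windows of members with signal on every array, 11.5 CpG in the 10 windows of the other members and 7 CpG in all windows. TGCCGC, the motif that the imprint-keeping protein ZFP57 binds when methylated, was searched on both strands. It was present in windows of 8 of the 29 members (27.6%), against 13.1% of all genes with a window. Those 8 were Grb10, Igf2, Meg3, Mest, Nnat, Plagl1, Snrpn and Zim1, among which Grb10 and Meg3 were not above background on every array. By window the share was 19.6% of the members' windows (9 windows) and 11.6% of all windows. The 9 include the overlapping Mest windows that start at bases 30737800 and 30737803. Members had 46 windows for 29 genes, against 32851 windows for 27025 genes. The motif itself holds a CpG, and these shares were not adjusted for CpG number or for windows per gene.

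Levels are log2 processed intensities minus the 75th percentile of all non-control probes on the array, so that 0 is that percentile. A probe was counted as giving signal where the scanner software had marked it well above background, and levels of different probes are not set against each other, since each probe has its own brightness. All arrays lay on 1 slide, with MPE arrays in its second row and vehicle arrays in its first, so that an effect of the row cannot be told apart from one of MPE. Between 27944 and 28514 probes were well above background on MPE arrays and between 29501 and 30122 on vehicle arrays. Probes over 3 log2 units above all other arrays on a single array numbered 233 to 300 per MPE array and 41 to 91 per vehicle array. Of 16 beta-cell markers, 15 were well above background on all 7 arrays, and the glucose transporter gene Slc2a2 was on none. Of 14 stromal, endothelial and immune markers 7 were on all arrays, with Col1a1, Col3a1 and Pdgfrb on none, and of 5 placental and yolk-sac markers only Ttr was. Glucagon (Gcg), the hormone of alpha cells, stood at 4.78 to 4.95 on MPE arrays and 4.79 to 4.92 on vehicle arrays. In a bulk culture, fewer cells of a type and less RNA per cell cannot be told apart.

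Of the 36 imprinted genes, 23 (63.9%) had a probe well above background on all 7 arrays, against 56.5% of the 22911 named genes on the array. Another 9 (25%) had none on any array, against 32.1% of named genes, and 4 were well above background on a single array each. The scanner's looser flag, for positive and significant spots, left 2 members (5.56%) without a mark on any array, Sgce and Grb10, against 12.9% of named genes, and marked 25 members on all 7 arrays (69.4% against 63.4%). Most of the 9 thus carried that looser mark on some array, from 1 array for Rtl1 and Magel2 to 6 for Mkrn3, but none on all 7. The 9 without signal were H19, Rtl1, Dio3, Rian, Peg10, Sgce, Magel2, Mkrn3 and Grb10. Among the 30 protein-coding members, 20 (66.7%) gave signal on every array, against 61.6% of named coding genes. Among the 6 non-coding members, Kcnq1ot1, Mirg and Airn did (50%), against 19.3% of named long non-coding RNA genes. In mouse tissues, 20 members are known as paternally expressed, of which 14 (70%) gave signal on every array, and 14 as maternally expressed, of which 8 (57.1%) did. Signal was absent from every array for 6 of the paternal members (30%) and 2 of the maternal ones (14.3%). The number of members with signal was 23, 23, 24 and 24 on the MPE arrays and 23, 23 and 25 on the vehicle arrays.

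**Figure D1:**
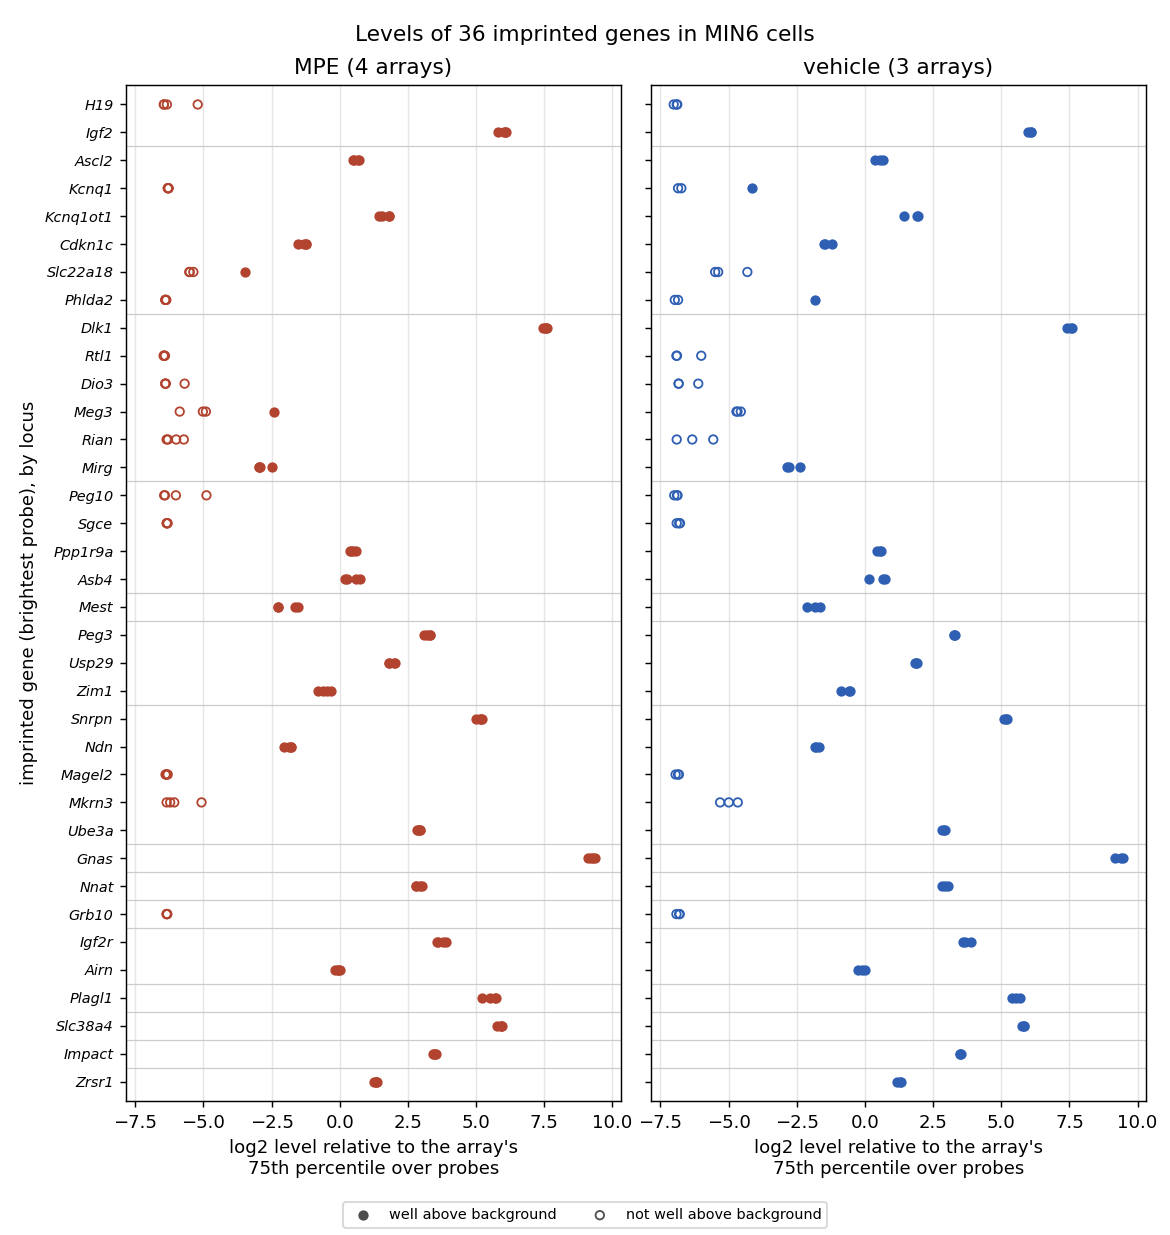
Log2 level of each of the 36 imprinted genes relative to the array's 75th percentile (horizontal axis), by its brightest probe, with 1 point per array, MPE arrays left and vehicle arrays right. Filled points were well above background and open points were not, and grey lines part the loci. The 23 genes with filled points on all 7 arrays lie at like levels in both panels, and single filled points stand apart for Phlda2 and Kcnq1 on a vehicle array and for Meg3 and Slc22a18 on an MPE array.

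**Figure D2:**
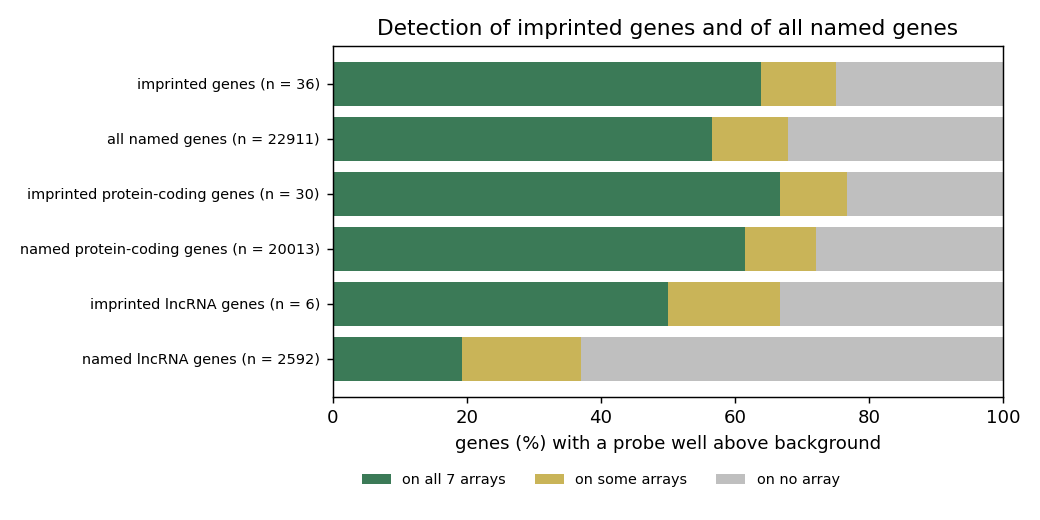
Share of genes (%, horizontal axis) with a probe well above background on all 7 arrays, on some and on none. Imprinted genes are set above all named genes of the same class, with 63.9% of imprinted genes and 56.5% of named genes on all arrays, and 50% of 6 imprinted against 19.3% of 2592 named long non-coding RNA genes.

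At the H19-Igf2 locus, the growth factor gene gave signal and the non-coding RNA did not. Igf2 encodes insulin-like growth factor 2, a fetal growth factor that is also made by beta cells. Its level was 6.11, 6.04, 5.81 and 6.05 on the MPE arrays and 6.09, 6.10 and 5.99 on the vehicle arrays, and the groups overlapped. A second Igf2 probe read 3.83, 3.89, 3.54 and 3.81 with MPE and 4.02, 3.82 and 3.75 with vehicle. H19, a maternally expressed RNA that shares enhancers with Igf2, read -5.21, -6.45, -6.34 and -6.45 on MPE arrays and -6.88, -7.01 and -6.90 on vehicle arrays, none of them well above background, although 2 arrays were marked positive and significant. Igf2r, a receptor that takes IGF2 to the lysosome, stood at 3.79, 3.89, 3.57 and 3.59 on MPE arrays and 3.90, 3.66 and 3.60 on vehicle arrays. Airn, the paternal non-coding RNA that runs antisense to Igf2r, also gave signal on every array. Its values were -0.17, -0.07, -0.07 and 0.02 with MPE and -0.10, -0.26 and 0.00 with vehicle. A probe to another Airn transcript was above background on vehicle array 3 alone, at -3.95.

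The Kcnq1 cluster is controlled in mouse by Kcnq1ot1, a paternal RNA that silences its neighbours in cis. Kcnq1ot1 read 1.43, 1.55, 1.81 and 1.80 on MPE arrays and 1.43, 1.91 and 1.95 on vehicle arrays. Of its 5 probes, 4 were well above background on every array, and the fifth was on none. MPE arrays 1 and 2 and vehicle array 1 were the 3 lowest arrays for each of those 4 probes. Cdkn1c, which encodes the cell-cycle inhibitor p57, stood at -1.24, -1.55, -1.23 and -1.30 with MPE and -1.45, -1.49 and -1.21 with vehicle. Ascl2, a transcription factor of placenta and intestinal stem cells, stood at 0.48, 0.53, 0.69 and 0.66 with MPE and 0.38, 0.68 and 0.54 with vehicle. Both genes thus had signal on every array, with overlapping groups.

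The members Phlda2, Kcnq1 and Slc22a18 of that cluster were well above background on 1 array each. Among neighbours outside the member set, Cd81, Tssc4, Osbpl5, Nap1l4, Tnfrsf22 and Tnfrsf23 were on all 7, and Tspan32 was on none. Phlda2, a growth-restraining gene of the placenta, was at -6.40, -6.39, -6.36 and -6.39 on MPE arrays and at -6.85, -6.97 and -1.82 on vehicle arrays. The third vehicle array alone carried that signal, and it is among the 91 probes that were bright on that array alone. Kcnq1, a potassium-channel gene linked to diabetes risk in people, has 4 probes, of which 1 was well above background, on vehicle array 3 at -4.15. On the other arrays that probe read -6.31, -6.30, -6.28 and -6.28 with MPE and -6.73 and -6.85 with vehicle. Slc22a18, a membrane transporter gene, read -5.52, -5.50, -3.49 and -5.37 with MPE and -5.49, -5.38 and -4.31 with vehicle, and only MPE array 3 was well above background. It was positive and significant on all 7 arrays.

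**Figure D3:**
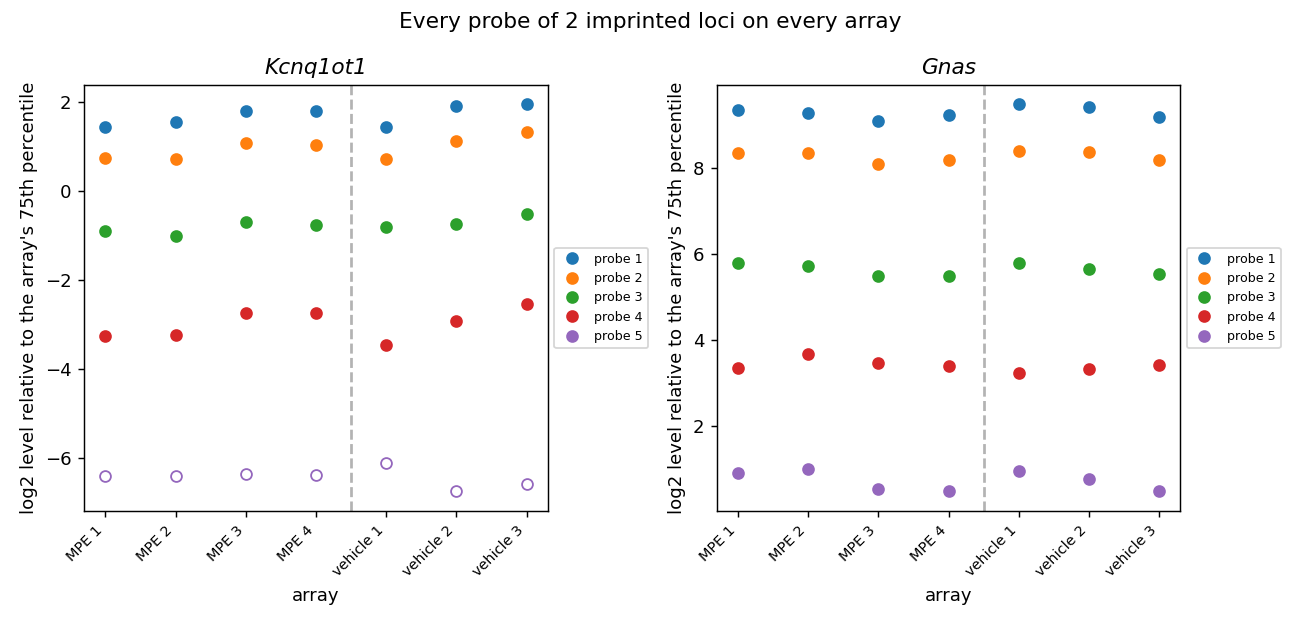
Log2 level of every probe of Kcnq1ot1 (left) and Gnas (right) relative to the array's 75th percentile (vertical axis) on each array, with MPE arrays left of the dashed line and vehicle arrays right of it. Filled points were well above background and open points were not. The 4 detected Kcnq1ot1 probes are lowest on MPE arrays 1 and 2 and vehicle array 1, and the fifth probe is not well above background on any array.

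In the Dlk1-Dio3 cluster the paternal gene Dlk1 and the maternal RNA Mirg gave signal on every array. Dlk1, a membrane protein related to Notch ligands that is found in adult beta cells, stood at 7.59, 7.53, 7.47 and 7.57 on MPE arrays and 7.60, 7.41 and 7.55 on vehicle arrays. Its second probe read 4.88, 4.87, 4.83 and 5.02 with MPE and 4.78, 4.75 and 4.85 with vehicle. Mirg, host of a large microRNA cluster, read -2.47, -2.95, -2.96 and -2.91 with MPE and -2.39, -2.85 and -2.78 with vehicle. Array 1 of each group was the highest of its group. Meg3, the maternal RNA whose start window is printed with that of Dlk1, read -4.91, -5.02, -5.87 and -2.42 on MPE arrays and -4.55, -4.71 and -4.67 on vehicle arrays. MPE array 4 alone was well above background, by 1 of 4 Meg3 probes, although a Meg3 probe was positive and significant on all 7. Rian, the snoRNA host, read -6.35 to -5.72 with MPE and -6.90 to -5.56 with vehicle, with 4 arrays positive and significant. The retrotransposon-derived Rtl1 and the thyroid-hormone deiodinase gene Dio3 were likewise not well above background on any array, and were positive and significant on 1 array and 3 arrays.

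In the Peg10-Sgce cluster the maternal members Ppp1r9a and Asb4 gave signal, and the paternal pair Peg10 and Sgce did not. Among neighbours outside the member set, Casd1 and Pon3 were well above background on all 7 arrays, Calcr on 1 array, and Tfpi2 and Pon2 on none. Ppp1r9a encodes neurabin, an actin-binding regulator of protein phosphatase 1, and stood at 0.61, 0.50, 0.39 and 0.40 with MPE and 0.55, 0.58 and 0.44 with vehicle. Asb4, an ankyrin-repeat protein of ubiquitin ligase complexes, read 0.26, 0.19, 0.73 and 0.61 with MPE and 0.14, 0.75 and 0.65 with vehicle. Its lowest arrays were MPE arrays 1 and 2 and vehicle array 1, as for Kcnq1ot1, and its groups overlapped. A second, dimmer Asb4 probe read -4.18, -3.86, -3.70 and -3.68 with MPE and -4.77, -3.93 and -4.17 with vehicle, well above background on 3 MPE and 2 vehicle arrays. Its log2 difference of 0.43 (SE 0.22, 95% interval 0.946 to 1.93 times vehicle, limma adjusted p = 1) was of the opposite sign to the -0.07 (SE 0.19) of the first probe. It was 0.033 under normexp background correction and 0.194 without vehicle array 1. Each of the paternal genes Peg10, derived from a retrotransposon and needed for the placenta, and Sgce, which encodes epsilon-sarcoglycan, had 2 probes, none of them well above background on any array. Mest, a paternal gene for a hydrolase-like protein, read -1.66, -1.55, -2.26 and -2.28 with MPE and -1.64, -1.82 and -2.12 with vehicle. There MPE arrays 1 and 2 and vehicle array 1 were the 3 highest.

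The members Peg3, Usp29 and Zim1 of the Peg3 cluster gave signal on every array, while the further zinc-finger genes Zim2 and Zim3 did on 1 and 5 arrays. Peg3, a zinc-finger protein of the paternal copy, stood at 3.30, 3.21, 3.09 and 3.29 with MPE and 3.29, 3.26 and 3.26 with vehicle. Usp29, a ubiquitin peptidase that starts beside Peg3 on the opposite strand, stood at 2.02, 1.99, 1.80 and 1.80 with MPE and 1.92, 1.83 and 1.86 with vehicle. The maternal zinc-finger gene Zim1 read -0.61, -0.81, -0.34 and -0.48 with MPE and -0.57, -0.87 and -0.56 with vehicle. The groups overlapped for each of them.

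At the Snrpn-Ube3a locus, which corresponds to the human Prader-Willi and Angelman region, Snrpn, Ndn and Ube3a gave signal on every array, while Magel2 and Mkrn3 did on none. Snrpn, a splicing protein of the paternal copy, read 5.20, 5.18, 4.98 and 5.14 with MPE and 5.21, 5.17 and 5.12 with vehicle. Its probe is spotted 10 times per array, and the SD between spots was 0.03 to 0.06 on MPE arrays and 0.04 to 0.08 on vehicle arrays. Ndn, which encodes necdin, a growth suppressor of neurons, stood at -1.78, -1.79, -1.85 and -2.04 with MPE and -1.84, -1.69 and -1.80 with vehicle. Ube3a, the ubiquitin ligase imprinted in neurons, stood at 2.93, 2.85, 2.94 and 2.83 with MPE and 2.89, 2.84 and 2.93 with vehicle. Magel2, a MAGE-family gene, read -6.39 to -6.31 with MPE and -6.94 to -6.82 with vehicle, with 1 array positive and significant. Mkrn3, a makorin that holds back puberty, read -6.35 to -5.07 with MPE and -5.31 to -4.66 with vehicle. It was never well above background but was positive and significant on 6 of 7 arrays.

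Gnas, which encodes the stimulatory G protein alpha subunit and, from other promoters, related proteins of one or the other parental copy, gave signal with all 5 of its probes on all arrays. The probe that represents it read 9.35, 9.28, 9.10 and 9.23 with MPE and 9.48, 9.41 and 9.18 with vehicle. Nnat, which encodes neuronatin, a membrane protein that promotes insulin processing in beta cells, stood at 2.94, 2.78, 2.78 and 3.03 with MPE and 2.94, 3.05 and 2.83 with vehicle. Grb10, an adaptor that dampens insulin and IGF1 receptor signalling, had no array well above background, or positive and significant, by either of its probes. The first read -6.35 to -6.33 on MPE arrays and -6.91 to -6.79 on vehicle arrays. With neither group above background, no fold is given.

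The remaining single genes were above background on every array. Plagl1, a zinc-finger regulator of imprinted genes linked to transient neonatal diabetes in people, read 5.69, 5.72, 5.23 and 5.51 with MPE and 5.68, 5.55 and 5.41 with vehicle. Slc38a4, an amino-acid transporter, read 5.90, 5.91, 5.94 and 5.75 with MPE and 5.82, 5.77 and 5.84 with vehicle. Impact, a regulator of translation under stress, read 3.52, 3.46, 3.50 and 3.41 with MPE and 3.51, 3.47 and 3.48 with vehicle. Zrsr1, a splicing-related gene, read 1.33, 1.35, 1.33 and 1.27 with MPE and 1.29, 1.17 and 1.34 with vehicle. MPE and vehicle arrays overlapped in all 4 genes.

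MPE was then compared with vehicle in the 23 imprinted genes with signal, within a limma fit across all 22060 genes tested. None of the 23 passed an adjusted p of 0.05, and 0.00453% of all genes did (1 gene). At an unadjusted p under 0.05 the members again counted 0, against 4.11% of all genes (0.757% higher and 3.35% lower with MPE). The arrays of the groups did not overlap in 0 of the 23 and in 4.53% of all genes (1.17% higher and 3.36% lower with MPE). In direction, 9 lay above vehicle and 14 below it, and the median log2 difference was -0.01, against -0.02 over all genes, in a range of -0.15 to 0.11. With each array scaled to its median, which shifts the median of all genes to -0.09, the split was 1 higher and 22 lower.

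Gnas had the smallest unadjusted p of the members. It averaged 9.24 ± 0.11 with MPE (SD, n = 4) and 9.36 ± 0.16 with vehicle (SD, n = 3), that is -0.12 on the log2 scale (SE 0.10, limma adjusted p = 1). This equals 0.923 times vehicle, with a 95% interval of 0.789 to 1.08, and 2 of the 5 Gnas probes gave log2 differences above 0, of 0.153 and 0.003. Ndn averaged -1.87 ± 0.12 with MPE and -1.78 ± 0.07 with vehicle (SD, n = 4 and 3), a difference of -0.09 (SE 0.08, limma adjusted p = 1). Slc38a4 averaged 5.87 ± 0.09 with MPE and 5.81 ± 0.03 with vehicle, a difference of 0.07 (SE 0.06, limma adjusted p = 1). Zrsr1 averaged 1.32 ± 0.03 with MPE and 1.27 ± 0.09 with vehicle, a difference of 0.06 (SE 0.06, limma adjusted p = 1). Mirg averaged -2.82 ± 0.24 with MPE and -2.67 ± 0.25 with vehicle, a difference of -0.15 (SE 0.16, limma adjusted p = 1). The 95% interval of each of these 5 includes no change, and the signs of Gnas, Slc38a4 and Zrsr1 turned with another scaling.

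Igf2 stood at 0.959 times vehicle with MPE (95% interval 0.836 to 1.10), Dlk1 at 1.01 times (0.910 to 1.13) and Kcnq1ot1 at 0.926 times (0.713 to 1.20). Their log2 differences were -0.06 (SE 0.08), 0.02 (SE 0.07) and -0.11 (SE 0.16), each with a limma adjusted p of 1. The signs of Igf2 and Dlk1 turned when 1 array was left out. Intervals bound the size of change that these arrays leave room for. Of the 23 genes, 22 had 95% intervals inside 1.5-fold in both directions, against 80.7% of all genes tested, and all 23 were inside 2-fold. The exception within 1.5-fold was Mest, with an interval of 0.657 to 1.37 times vehicle.

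**Figure D4:**
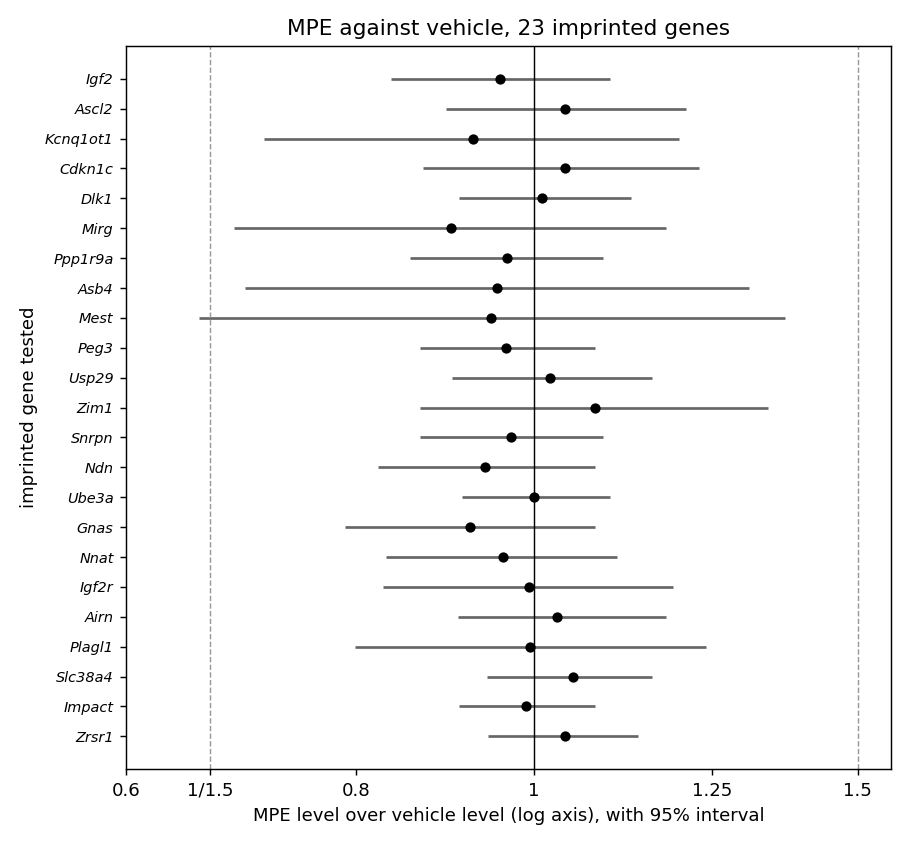
MPE level over vehicle level (horizontal log axis) with its 95% interval from the limma fit for the 23 imprinted genes tested, 4 MPE and 3 vehicle arrays. The solid line marks no difference and the dashed lines mark 1.5-fold, and only the interval of Mest crosses a dashed line.

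Probes of the same locus can read different transcripts, so the fit was repeated over 28874 single probes. None of the 41 member probes tested passed, and 0.0104% of all probes did (3 probes). The groups did not overlap in 4 of the 41 (9.76%), against 4.64% of all probes, and these same 4 were under an unadjusted p of 0.05, against 4.15% of all probes. All 4 are second probes of genes whose representing probe overlapped between groups.

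A Snrpn probe to transcript NM_013670 read 2.20, 2.30, 2.42 and 2.11 with MPE and 1.98, 1.97 and 2.03 with vehicle, every MPE array above every vehicle array. Its log2 difference was 0.26 (SE 0.08, 1.20 times vehicle, 95% interval 1.05 to 1.37, limma adjusted p = 1). Lower values with MPE were read by the other 3. A Ube3a probe to the predicted transcript XM_006540799 read -2.96, -3.09, -3.08 and -3.07 with MPE and -2.54, -2.83 and -2.83 with vehicle, a difference of -0.31 (SE 0.09, limma adjusted p = 1). The second Plagl1 probe read -1.19, -1.13, -1.24 and -1.12 with MPE and -0.95, -0.89 and -1.04 with vehicle, a difference of -0.21 (SE 0.06, limma adjusted p = 1). The second Ppp1r9a probe read -3.90, -3.68, -3.70 and -3.74 with MPE and -3.62, -3.45 and -3.50 with vehicle, a difference of -0.23 (SE 0.08, limma adjusted p = 1), and MPE array 1 was not well above background. The differences of the dim Ube3a and Ppp1r9a probes shrank to -0.14 and -0.13 under normexp background correction. Whether the Snrpn probes also bind RNA of the related gene Snrpb was not tested.

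The proteins that set, keep or read imprints were largely present by RNA. Of 31 listed genes, 26 were well above background on all arrays, among them the KRAB zinc-finger gene Zfp445 and its partner Trim28, which keep imprints methylated. Zfp445 stood at 1.24, 1.30, 1.48 and 1.36 with MPE and 1.31, 1.27 and 1.39 with vehicle, with overlapping groups. Zfp57, whose protein binds the motif searched in the windows, had no signal on any array, and neither had Ctcfl, a germ-cell paralogue of CTCF, nor Nlrp2, an oocyte gene. Dnmt3l, the cofactor of germ-line methylation, was above background on 1 vehicle array, and Dppa3, which guards the zygote's methylation, on 1 MPE array. None of the 26 passed in the comparison of MPE with vehicle. MPE levels were above vehicle in 17 and below it in 9, and the median was 0.01 in a range of -0.10 to 0.08. The smallest unadjusted p values were 0.253 for the Polycomb gene Suz12 (log2 difference -0.06, SE 0.05), 0.308 for the histone methyltransferase gene Ehmt1 (-0.10, SE 0.09) and 0.335 for its counterpart Setdb1 (0.07, SE 0.06), each with a limma adjusted p of 1.

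Of 53 further imprinted genes or close neighbours, 51 had a probe, and 31 of those gave signal on all arrays. No signal on any array came from Sfmbt2, Klf14, Tfpi2, Pon2, Tspan32, Slc22a2, Slc22a3, Gab1, Nctc1 and Ano1. Of the 33 tested, 0 passed, 9 lay above vehicle and 24 below it, and the median was -0.03 in a range of -0.19 to 0.29. The smallest unadjusted p values were 0.0848 for the phosphodiesterase gene Pde4d (log2 difference -0.17, SE 0.08), 0.119 for the insulin gene Ins2 (-0.18, SE 0.10) and 0.143 for the glutaminyl cyclase gene Qpct (0.18, SE 0.11), each with a limma adjusted p of 1. Ins2, which lies beside Igf2 and is imprinted in the yolk sac, read 10.30, 10.26, 10.10 and 10.26 with MPE and 10.58, 10.47 and 10.19 with vehicle. Its groups overlapped through vehicle array 3.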

How the data were processed

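The authors deposited Agilent Feature Extraction scanner files for 7 Cy3 arrays and a table of log2 values (56605 probes). Per the file headers (software 11.5.1.1, or 10.5.1.1 per the submitters' processing notes), the processed intensity is background-subtracted and detrended within its array. The deposited log2 table matched each array's own scanner values at a correlation of 0.9996 or more, and every column had a median of 4.438. It is therefore not centred per gene and runs the same way. Equal medians alone do not show the method. The members' median log2 difference was 0.002 in it, against 0.001 with quantile scaling and -0.084 with each array scaled to its median. It thus lies closer to quantile normalized values. What software made it is not given in the sources consulted.

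Groups came from the labels. Control spots and outlier-flagged spots were left out (55 to 120 spots per array), no spot was saturated, spots of a probe were averaged, and each array's 75th percentile was subtracted on the log2 scale. Probes with a value on all arrays and well above background on at least 3 were kept. Symbols came from unversioned accessions in a RefSeq table (GRCm38.p6), used for names, for 32994 probes. The probe with the highest mean stood for a gene. The groups were compared in limma 3.58.1 (R 4.3.3; lmFit, then eBayes), with Benjamini-Hochberg adjustment over all genes or probes at 0.05. The fit was tested on simulated data. The number of arrays limits the precision.

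The members and gene lists were chosen with earlier results of these data known. Every member was named. Full statistics were given for called members, the 5 with the smallest unadjusted p and those with groups that do not overlap, and Igf2, Dlk1 and Kcnq1ot1 were added. Of the other lists, called genes, the 3 with the smallest p and those without signal were named. Gcg, Zfp445, the second Asb4 probe and the neighbours named within a cluster were chosen after their values were seen. Alternatives were other scalings, filters, background correction (normexp, offset 50, on median spot intensity, since the files used here hold no mean), the authors' table, blocks, variance settings, probe choices, detection rules and each array left out. The fit of each probe by itself was added after seeing the data.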

Additional observations from a re-analysis of the deposited data

Results flagged for a closer look

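Of 41 imprinted probes checked for an outlying MPE array, 2 had one, and chance alone gives about 1 in 20. Mirg read -2.47 on MPE array 1, against -2.96 to -2.91 on the other MPE arrays. The second Ube3a probe read -2.96 on MPE array 1, against -3.09 to -3.07 on the others. Array 1 was also the highest of the vehicle arrays for both probes. It read -2.39 for Mirg, against -2.85 and -2.78, and -2.54 for Ube3a, against -2.83 and -2.83.

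Signal on a single array also came from probes that the comparison did not use. A probe named H19 in the files, without an accession and so outside the members, read -3.79 on MPE array 2 and -6.94 to -6.34 on the other 6 arrays. Meg3 read -2.42 on MPE array 4 and -5.87 to -4.55 elsewhere. Slc22a18 read -3.49 on MPE array 3 and -5.52 to -4.31 elsewhere.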

How the results depend on the processing

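No imprinted gene passed under any of the 13 other settings or with any array left out, except without a filter on dim probes. Without it 3 of 36 members passed, Sgce, Grb10 and Magel2, at log2 differences of 0.50, 0.49 and 0.52. Over all genes 9968 of 45479 passed in that setting, 9619 of them higher and 349 lower with MPE. None of the 3 is above background on any array. Their probes averaged -6.35 to -6.33 on MPE arrays and -6.87 to -6.83 on vehicle arrays. Such differences between levels below background are not read as changes in RNA. In that setting 2 machinery genes and 3 further imprinted genes passed too. Over all genes 1 passed. It was 0 with normexp, with signal required on all 7 arrays, with the replicate block or with a block for the slide column, 4 with array weights, 3 with a trended robust variance and 3 with the dimmest probe per gene. With 1 array left out it was 0 to 4, 0 without vehicle array 1, 2 or 3, 3 without MPE array 1, 2 or 3 and 4 without MPE array 4. The cause was not tested.

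The labels do not say whether arrays of the same replicate number are pairs, and the correlations do not decide it. Deviations of same-numbered arrays correlated at 0.25, 0.05 and 0.41, those of MPE array 2 and vehicle array 1 at 0.31, and those of MPE arrays 1 and 2 with vehicle array 3, and of MPE array 3 with vehicle array 1, at -0.33 to -0.31. With the replicate block the smallest adjusted p among imprinted genes was 0.62.

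Small differences turned sign. Gnas was 0.001 with quantile scaling, 0.002 in the authors' table and 0.003 with its dimmest probe, and 2 of its probes gave 0.153 and 0.003. Median scaling gave -0.004 for Slc38a4, -0.015 for Zrsr1 and -0.051 for Dlk1. A block for the slide column gave 0.005 for Igf2. With 1 array left out Igf2 ran from -0.096 to 0.005 (above 0 without MPE array 3), Dlk1 from -0.035 to 0.060 (below 0 without vehicle array 2), Gnas from -0.205 to -0.054, Kcnq1ot1 from -0.279 to -0.018, Mirg from -0.269 to -0.007, Ndn from -0.118 to -0.027, Slc38a4 from 0.043 to 0.109 and Zrsr1 from 0.008 to 0.090. The 4 probes without overlap kept their sign in every setting that kept them. With 1 array left out they ran from 0.210 to 0.312 for Snrpn, -0.363 to -0.218 for Ube3a, -0.248 to -0.173 for Plagl1 and -0.280 to -0.184 for Ppp1r9a. Without a filter the Plagl1 probe had a limma adjusted p of 0.0491 at a difference of -0.208, the same as in the main fit. That setting passed 9968 of 45479 genes, so this value adds no evidence for the probe.

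The 23 genes with signal on all arrays stayed 23 with each array left out and were 25 under the scanner's looser flag for positive and significant spots. The 9 without signal became 9 to 11, 10 with 1 threshold for all arrays and 2 under that looser flag.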
